A study of Mus musculus with 2 samples.

Results

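A set of 111 cells of the mouse knee, out of 6243 in all, carried messages of both Mmp13 and Spp1 while holding few genes of mature osteoblasts or of hypertrophic chondrocytes. They are called Mmp13+Spp1+ cells here. The cells were chosen by their measured values: Mmp13 and Spp1 were both above 0, fewer than 2 of the 3 osteoblast genes Bglap, Bglap2 and Ifitm5 were above 0, and fewer than 2 of the 5 hypertrophic genes Ihh, Col10a1, Panx3, Pth1r and Mef2c were above 0. There were 71 such cells among 4903 control cells and 40 among 1340 cells of Stat3 mutants. The 10 genes of the rule are therefore described and support nothing below.

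The study asked what the transcription factor Stat3 does in cartilage cells of the growing knee. Cells were taken from the knees of female mice at 1 month of age, live cells negative for CD31, Ter119 and CD45 were sorted, and 3' single-cell libraries were made. Control cells were from Stat3fl/fl mice, which carry loxP sites on both Stat3 alleles and no Cre, and mutant cells from Acan-Cre+/Cre;Stat3fl/fl mice. The Cre stands at the aggrecan gene Acan and is aimed at chondrocytes. The methods name it as the tamoxifen-inducible form, with tamoxifen given to pups. The paper states that growth plate chondrocytes can turn into osteoprogenitors, so a cell without Acan at 1 month may descend from a targeted cell. Which cells of the set carried the deletion was not measured. Each library pooled 2 to 3 mice, so there was 1 sample per genotype, no test could be made, and every difference below compares these libraries only.

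Mmp13, collagenase 3, cuts the collagen of cartilage and bone and is made at the junction where mineralized cartilage gives way to bone. Spp1 encodes osteopontin, an acidic phosphoprotein of mineralized matrix that also binds integrins on cells. Cells that make both are known among terminal hypertrophic chondrocytes and early osteoblasts at the mineralizing front, and the marrow stroma that lies next to it holds Cxcl12-producing reticular cells that support blood cell precursors and give rise to bone and fat cells.

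The stretches directly before the start sites of the 2 genes that define the cells are shown because both hold the same short word for RUNX factors, of which Runx1 and Runx2 were measured in these cells. The 250 bases upstream of the RefSeq start (GRCm38.p6, plus strand) lie at chr9:7272264-7272513 for Mmp13 and at chr5:104434861-104435110 for Spp1, the first of 2 start sites listed for that gene. Capitals mark the RUNX word ACCACA, which reads TGTGGT on the opposite strand, and the AP-1 word TGACTCA. The words do not overlap.
Mmp13: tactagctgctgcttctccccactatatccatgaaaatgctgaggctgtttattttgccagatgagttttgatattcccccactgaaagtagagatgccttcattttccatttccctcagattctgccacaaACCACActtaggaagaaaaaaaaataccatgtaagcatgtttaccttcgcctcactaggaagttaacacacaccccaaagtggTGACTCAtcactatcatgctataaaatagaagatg
Spp1: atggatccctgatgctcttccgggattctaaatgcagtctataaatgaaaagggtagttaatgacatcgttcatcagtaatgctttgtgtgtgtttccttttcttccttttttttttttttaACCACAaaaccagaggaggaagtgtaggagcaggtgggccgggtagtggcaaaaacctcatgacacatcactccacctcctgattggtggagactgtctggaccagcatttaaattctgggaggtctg
The RUNX word began 118 bases before the Mmp13 start and 128 bases before the Spp1 start, and the AP-1 word 35 bases before the Mmp13 start. Windows of the other Spp1 start, of Ibsp and of Cxcl12 were searched alike and held neither word. Among 32851 mouse promoter windows of this length, 14.0% held the RUNX word and 4.46% the AP-1 word on either strand. A match describes letters only.

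The Mmp13+Spp1+ cells were not all shallow, but the depth behind them was small. The total count of the 71 control cells ran from 526 estimated UMIs (unique molecular identifiers) over a median of 3214 to 21523, with quartiles of 2352 and 4251. In the 40 mutant cells it ran from 565 over 4831 to 19385, with quartiles of 2423 and 6666. No cell of either library was under 500, while 7 control and 2 mutant cells were under 1000. The summed cells held 254769 and 211985 estimated UMIs, so that 1 UMI equals 3.93 counts per 1000000 (CPM) in the control and 4.72 in the mutant sum. Levels below are such CPM of the summed cells, given for the control and then the mutant library unless stated, and a log2 ratio is log2((mutant CPM + 1)/(control CPM + 1)).

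**Figure D1:**
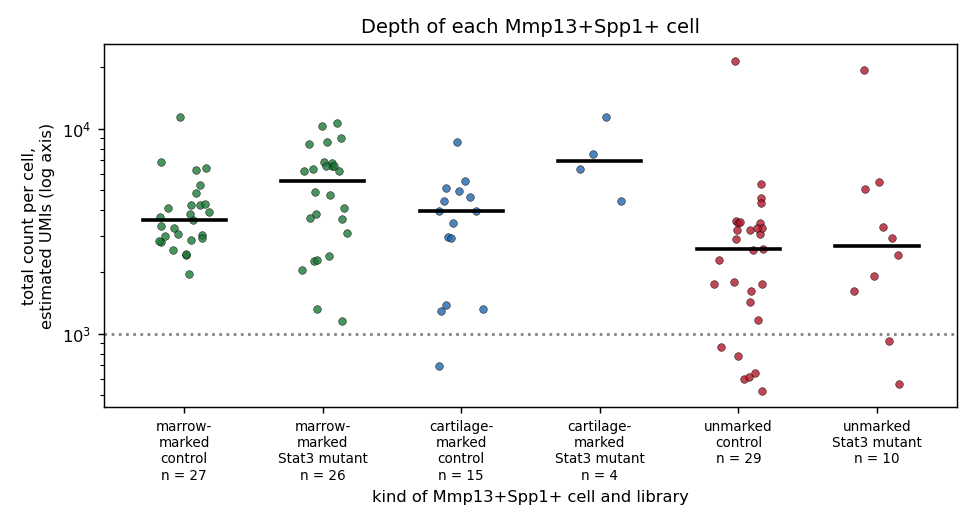
Total count of each Mmp13+Spp1+ cell on a log axis, by kind of cell (defined in the text) and library, with 1 point per cell, a bar at the median and a dotted line at 1000 estimated UMIs. Of the 9 cells under 1000, 8 were unmarked cells.

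The libraries differed in ways that touch these cells. A globin message was above 0 in 42 of the 71 control cells (59.2%) and in 1 of the 40 mutant cells (2.50%), against 75.7% and 8.43% of all cells. More than 5% mitochondrial reads were found in 9 control and 14 mutant cells of the set. Only 2 barcodes were shared between the libraries. Scrublet called 2 control cells of the set and no mutant cell doublets, but it marked only 3 of 1340 mutant cells in all. All 5 erythroid markers, Alas2 besides the globins, were seen in the control cells and summed to 668 CPM. In the mutant cells 1 of the 5 was seen, at 2.91 CPM. Markers of white blood cells were nearly absent. At 0 were 6 of 7 such markers in the control and 5 of 7 in the mutant cells, Ptprc and Adgre1 among them. So were 6 of 7 neutrophil markers in each library. The osteoclast genes Atp6v0d2, Calcr, Ocstamp and Dcstamp were at 0 in both libraries, as were the endothelial genes Cdh5, Kdr, Emcn and Flt1, with only Pecam1 seen, at 21.6 and 65.2 CPM. Ctsk, Acp5 and Mmp9, osteoclast genes that other cells also make, were seen. Muscle markers summed to 17.4 and 0 CPM, mural cell markers to 141 and 228, tendon markers to 1482 and 401, fibroblast markers to 206 and 116 and synovial lining markers to 577 and 43.6 CPM, against 14886 and 9361 CPM of the last in other globin-free cells.

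The name first given to this set, cells at the mineralizing front, was only partly borne out. Of its 4 markers Mmp13, Spp1, Ibsp and Fam20c, the first 2 chose the cells. Ibsp, bone sialoprotein, was above 0 in 45 and 11 cells and Fam20c, the kinase that phosphorylates such proteins, in 16 and 13. Col10a1, the collagen of hypertrophic cartilage, was seen in 9 and 2 cells. Over the other cells without globin, Ibsp and Fam20c had a median log2 ratio of 1.58 in the control and 0.98 in the mutant. Neither was at least 2-fold higher in both libraries, whereas all 5 marrow stromal markers were. Cxcl12 stood at 4205 and 7704 CPM, against 377 and 777 CPM in those other cells. Lepr, the leptin receptor, Adipoq, adiponectin, Kitl, stem cell factor, and Ebf3, a transcription factor of marrow stroma, had log2 ratios over other cells between 2.40 and 3.44 in the 2 libraries. Across all 1532 genes compared this way, 6.59% were at least 2-fold higher in both libraries.

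Sorted by their markers, the cells fell into 3 kinds, with cut-offs chosen after the values were seen. Marrow-marked cells had at least 2 of the 5 marrow stromal markers above 0 and numbered 27 of 71 control cells (38.0%, exact 95% interval 26.8 to 50.3) and 26 of 40 mutant cells (65.0%, 48.3 to 79.4). Cartilage-marked cells had at least 3 of 6 chondrocyte markers and fewer than 2 marrow markers, and numbered 15 (21.1%) and 4 (10.0%). The remaining 29 and 10 are called unmarked. Both sets of markers occurred together in 2 control and 2 mutant cells, counted as marrow-marked. These intervals, like those on shares below, are Clopper-Pearson intervals that cover counting error only. Globin was above 0 in 12 marrow-marked, 8 cartilage-marked and 22 unmarked control cells, so the kinds differed in it as well.

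**Figure D2:**
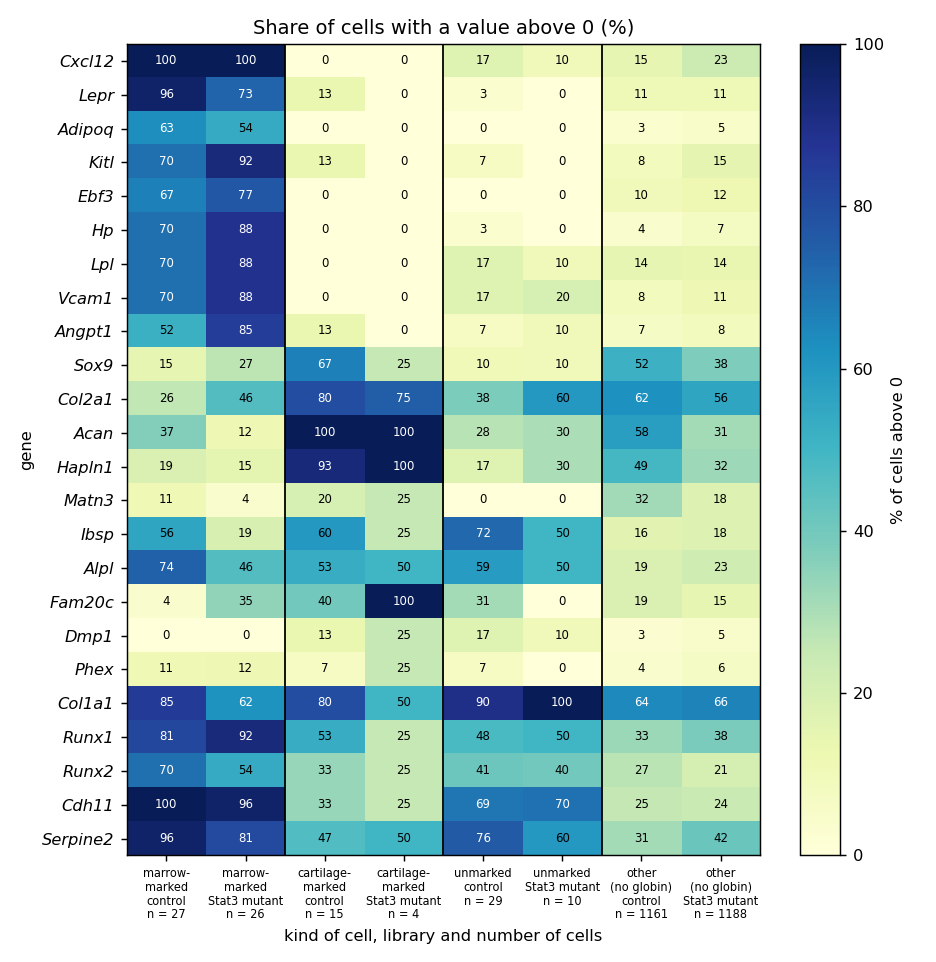
Share of cells with a value above 0 for 24 genes (rows) in the 3 kinds of Mmp13+Spp1+ cells and in other cells without a globin message, each for the control and the Stat3 mutant library. Cxcl12, a marker used to define the kinds, was above 0 in all marrow-marked cells and in no cartilage-marked cell. Ibsp and Col1a1, which were not used for that, were widespread in unmarked cells.

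The 3 kinds carried Mmp13 and Spp1 in different amounts. Unmarked cells held the highest Spp1 in the control, at 18339 and 16397 CPM, and Ibsp at 7970.5 and 2379 CPM. They also carried Col1a1, the main collagen of bone, at 12663 and 11089 CPM. Marrow-marked cells held Spp1 at 4035 and 3024 CPM and Mmp13 at 2291 and 1023 CPM. Dmp1, a matrix protein of osteocytes, was at 0 in all 53 marrow-marked cells, and 59.9 of its 62.8 control UMIs came from 5 unmarked cells. Mepe was seen in 2 unmarked control cells and in no mutant cell, and Sost and Fgf23, which osteocytes secrete, were at 0 in all 111. Cartilage-marked mutant cells rested on 1 cell, which alone held 1311 of their 1336 Spp1 UMIs and 613 UMIs of Col10a1.

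Counts per cell were low for many. Mmp13 was at a median of 3.92 estimated UMIs (0.476 to 83.8) in control and 2.0 (0.873 to 47.0) in mutant cells, and Spp1 at 5.21 (0.326 to 286) and 5.94 (0.528 to 1311). Rounded, 19 control and 16 mutant cells held no more than 1 UMI of Mmp13, 22 and 8 no more than 1 of Spp1, and 6 and 5 no more than 1 of either. The 3 cells with most Spp1 held 29.6% of it among control cells and 69.8% among mutant cells. As a background, 1524 control cells with at least 4 of 5 erythroid markers had Mmp13 in 6, Spp1 in 15 and both in 3, at a median of 5891 UMIs. Among cells with at least 3 of the fibroblast markers Pi16, Dpp4, Cd34 and Clec3b, both genes were found in 0 of 132 control cells, with an exact upper limit of 2.76%, and in 1 of 49 mutant cells.

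**Figure D3:**
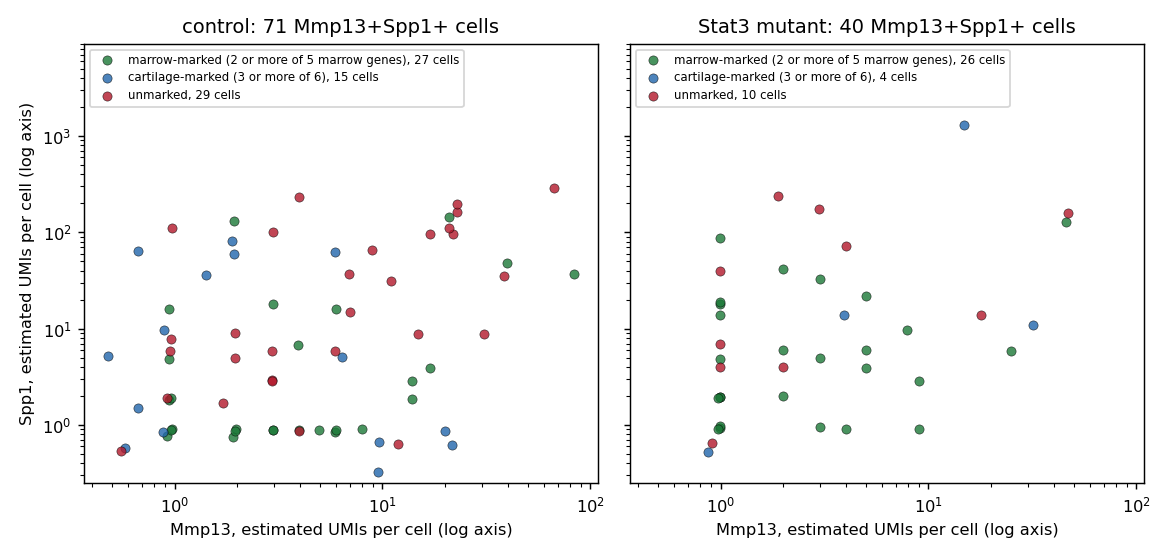
Estimated UMIs of Mmp13 (horizontal) and Spp1 (vertical) in each Mmp13+Spp1+ cell, both on log axes, for 71 control and 40 Stat3 mutant cells coloured by kind. Many cells of every kind sit near 1 UMI of one gene or the other, and a single cartilage-marked mutant cell stands at 1311 Spp1 UMIs.

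Cells just inside and just outside the limits of the rule are given as a description, since the rule genes chose them. Members with 1 of the 3 osteoblast genes (21 control, 20 mutant) had Bglap at 468 and 185 CPM, while cells left out with 2 of 3 (19 and 16) had 3864 and 4741 CPM. Cxcl12 was at 2471 and 6591 CPM just inside and at 1067 and 1758 CPM just outside. On the other limit, members with 1 of 5 hypertrophic genes (50 and 19) had Mef2c at 287 and 169 CPM, and cells left out with 2 of 5 (22 and 13) at 380.3 and 215 CPM. In all, 23 control and 17 mutant cells with both Mmp13 and Spp1 were left out by the osteoblast limit and 28 and 18 by the hypertrophic one.

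The genes that set the Mmp13+Spp1+ cells apart from other globin-free cells, the rule genes aside, included many of marrow stroma. The 15 leading genes, among those in at least 25% of the cells and at 50 CPM or more in each library, ranked by the smaller of both libraries' ratios, were Trf, Gdpd2, Cxcl12, Hp, Agt, Ebf3, Kitl, Pappa, Lpl, Vcam1, Angpt1, Cdh11, Lepr, Plxnd1 and Gas6. Trf, transferrin, the iron carrier of plasma, was at 466 and 834 CPM against 36.1 and 65.7 CPM in other cells. Hp, haptoglobin, which binds free hemoglobin, was at 465 and 1697 CPM against 49.4 and 117 CPM. Lpl, lipoprotein lipase, reached 1151 and 2398 CPM against 172 and 218 CPM. Several of the others act on blood cells or vessels: Kitl and Cxcl12 hold blood stem cells, Vcam1 is an adhesion molecule for white blood cells, Angpt1 is a ligand of the vessel receptor Tie2, and Gas6 a ligand of Axl and Mertk. Angpt1 was at 122 and 264 CPM and Gas6 at 452 and 993 CPM. Cdh11, a cadherin of bone-forming and stromal cells, was found in 52 and 33 cells at 1076 and 744 CPM. In unmarked cells Cdh11 was at 724 and 411 CPM and Hp at 11.0 and 0 CPM. Because the cells were picked by expression, these ratios describe them and are not tests.

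The share of Mmp13+Spp1+ cells was 1.45% (1.13 to 1.82) of control and 2.99% (2.14 to 4.04) of mutant cells, a difference of 1.54 percentage points with a 95% interval of 0.613 to 2.64. This difference moved with globin: among cells without a globin message the shares were 2.44% (29 of 1190) and 3.18% (39 of 1227), and the difference of 0.742 points had an interval of -0.643 to 2.13. It was also smaller, at 0.473 points (-0.190 to 1.32), when any osteoblast gene led to exclusion. The intervals of these differences cover counting of cells in 1 library each and are no test between genotypes. The part of erythroid cells in the pooled difference was not tested. Cells lost in preparation and cells fewer in the tissue cannot be told apart.

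Mutant and control levels were then compared in the Mmp13+Spp1+ cells as sums. Of 3284 genes with a mean of at least 50 CPM and found in at least 10% of the cells of either library, 311 (9.47%) were at least 2-fold higher and 344 (10.5%) at least 2-fold lower in the mutant, with a median log2 ratio of -0.01. Many genes thus passed this size without any replicate, so the lists below are read against these shares. A gene called tested below passed this filter on level, and no statistical test is meant. Because marrow-marked cells made up more of the mutant set, the same values are given within that kind, where 437 of 3474 genes (12.6%) were at least 2-fold higher, 504 (14.5%) lower and the median was -0.03.

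Of 17 listed genes of mineral and its matrix 11 were tested, and 7 were at least 2-fold lower and 1 higher in the mutant cells, with a median log2 ratio of -1.55, which was -0.90 without globin-positive cells. Ibsp was at 3440.4 and 1058 CPM (log2 ratio -1.70), but the 3 highest cells held 57.4% of it in the control, and without globin-positive cells it was at 798 and 1103 CPM, the other way round. Alpl, the phosphatase that frees phosphate for mineral, was at 950.2 and 324 CPM and was found in 45 and 19 cells. Enpp1, which makes the mineral inhibitor pyrophosphate, was at 285 and 84.5 CPM. Smpd3, a sphingomyelinase needed for mineralization, was at 136 and 23.5 CPM, in 13 and 3 cells. Without globin-positive cells its log2 ratio was 0.76, but at only 14.1 and 24.5 CPM. The phosphate carrier Slc20a2 was at 156 and 28.2 CPM. Sparc, a collagen-binding glycoprotein, was at 12929.5 and 6435 CPM. Mgp, matrix Gla protein, an inhibitor of calcification, was the gene of the list that was higher, at 4101 and 8305 CPM, but 3 cells held 90.3% of it in the mutant and with equal weight for each cell its log2 ratio was -0.38. Within marrow-marked cells 5 of 9 tested genes were at least 2-fold lower and none higher. There Ibsp was at 1132 and 199.9 CPM, in 15 and 5 cells, and Alpl at 1197 and 144 CPM, in 20 and 12 cells. This kind was itself mixed. Its 3 control cells with most Alpl held 41.7% of the control value. They had 0.804, 7.84 and 1.57 estimated UMIs of Cxcl12, against a median of 40.9 over the marrow-marked control cells. How much of the Alpl difference came with such weakly marked cells was not tested.

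All 9 collagens of bone and fibrous tissue were tested, and 8 were at least 2-fold lower in the mutant and none higher, with a median log2 ratio of -1.33 against -0.01 for all genes. Col1a1 was at 9987 and 2773 CPM and Col1a2 at 9129 and 3869.5 CPM. Col3a1, a collagen of loose connective tissue, was at 3447 and 929 CPM. Of the collagen VI chains, which form the pericellular network, Col6a2 was at 1566 and 289.9 CPM and Col6a3 at 1119.5 and 356 CPM. All 9 were also at least 2-fold lower in marrow-marked cells, with a median of -1.96 against -0.03. Col6a2 was above 0 in 27 and 14 of the 27 and 26 marrow-marked cells, at 1293 and 207 CPM with 30.0% of it in 3 control cells and 38.1% in 3 mutant cells. Col1a1 was at 8712 and 365 CPM there, where 1 control cell held 62.7%, and the median over cells was 1126 CPM in the control and 162 in the mutant. In the other globin-free cells Col1a1 was at 14228 and 11505 CPM and Col6a2 at 914 and 543 CPM, with log2 ratios of -0.31 and -0.75. Genes that fold and crosslink collagen were mixed, 2 of 11 at least 2-fold lower and none higher with a median of -0.59, among them Plod2, a lysyl hydroxylase, at 677 and 234 CPM and Bmp1, the procollagen C-proteinase, at 330.4 and 146 CPM.

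**Figure D4:**
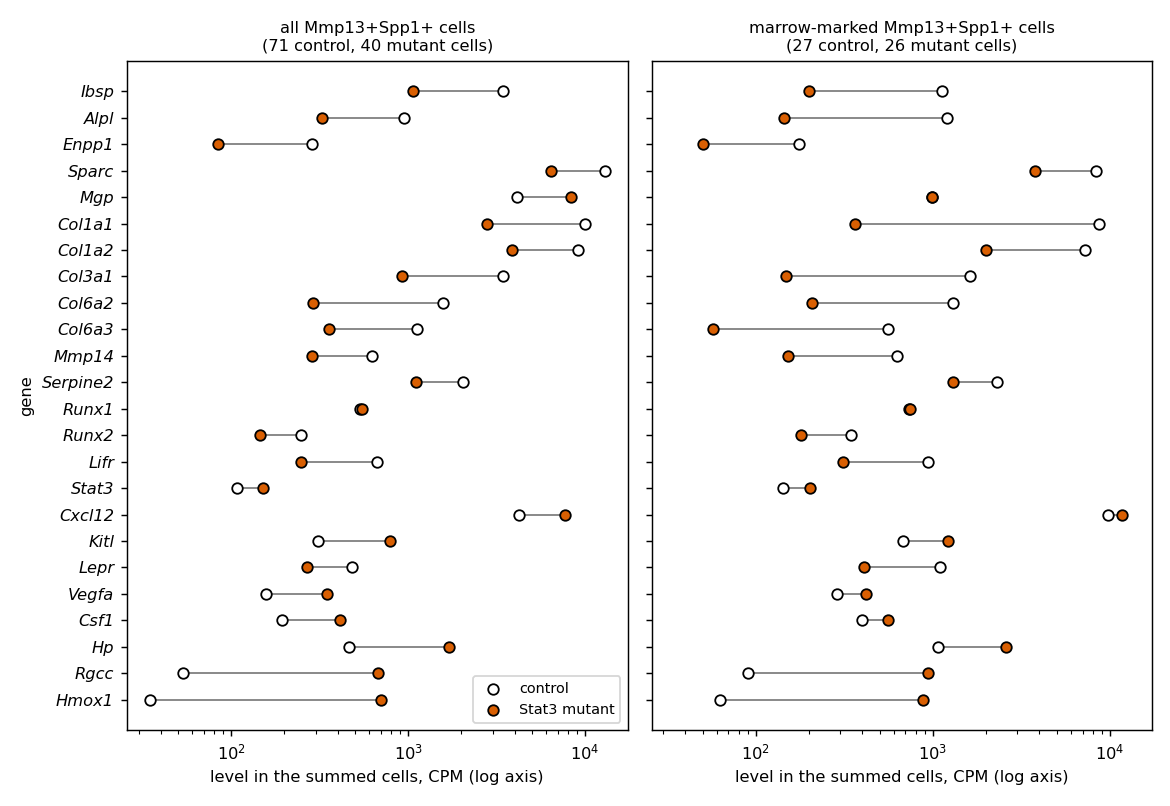
Level of 24 genes in CPM of the summed cells on a log axis, in the control (open) and the Stat3 mutant library (filled), for all Mmp13+Spp1+ cells (left) and marrow-marked ones (right). Collagens, Alpl and Ibsp lie lower in the mutant in both panels, Hmox1 and Rgcc higher, and Cxcl12 and Runx1 lie close together among marrow-marked cells.

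Proteases and their inhibitors showed no common direction. Of 16 matrix proteases besides Mmp13, 11 were tested, 1 was at least 2-fold higher and 2 lower, with a median of 0.38. The lower genes were Mmp14, the membrane-bound activator of other metalloproteases, at 627 and 287 CPM, and Mmp2, the gelatinase it activates, at 392 and 146 CPM. The higher gene was Adamts5, an aggrecanase, at 131 and 278 CPM. Mmp9, the gelatinase of osteoclasts and of cartilage removal, was found in 6 and 1 cells. Of 8 inhibitors 7 were tested, with a median of 0.31, and Timp4 alone passed 2-fold, at 3.93 and 132 CPM, with 92.9% of the mutant value in 3 of its 5 cells. Serpine2, an inhibitor of serine proteases, stood out by its level, at 2035 and 1108 CPM against 255 and 275 CPM in other cells.

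Among hypertrophic and osteogenic transcription factors, 6 of 14 were tested, with a median of -0.29, and 1 was at least 2-fold higher and 1 lower. Runx1 was at 532 and 551 CPM, in 44 and 30 cells, and exceeded its level in other cells by log2 ratios of 2.20 and 1.60. Runx2, required for bone formation and chondrocyte hypertrophy, was at 249 and 146 CPM, with log2 ratios over other cells of 1.48 and 1.17. Sp7, which acts after Runx2 in osteoblasts, was found in only 4 and 5 cells. Atf4, a factor of the stress response and of osteoblasts, was the higher gene, at 167 and 403 CPM, and the homeobox gene Dlx5 the lower, at 89.7 and 37.6 CPM. Of the chondrogenic factors Sox5, Sox6 and Sox9 only Sox9 was tested, at 111 and 102 CPM. Of the 12 genes of the hypertrophic set used in the study, besides those of the rule, 7 were tested, 1 was at least 2-fold higher and 3 lower, with a median of -0.72. The lower ones were Col1a1, Alpl and Cd200, and the higher one was Plin2, a lipid droplet protein, at 34.9 and 108 CPM.

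Cartilage matrix genes were at least 2-fold lower in the mutant for 5 of 13 tested genes of 16, and none was higher, with a median of -0.79, but of 0.07 in cells with at least 2 UMIs of both Mmp13 and Spp1. Col2a1 was at 4075 and 1607 CPM, with 92.7% of the mutant value in 3 cells, and Acan, whose locus carries the Cre in the mutant, at 867 and 159 CPM. Within marrow-marked cells 11 of 12 tested genes were lower, but these values also came from few cells, since 3 control cells held 98.9% of the Col2a1 there and the gene was above 0 in 7 and 12 cells.

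Of 8 listed genes whose products act on vessels and osteoclasts 5 were tested, and 3 of them, Vegfa, Vegfc and Csf1, were at least 2-fold higher in the mutant set, with a median of 1.09. Csf1, which drives macrophage and osteoclast formation, was at 195 and 415 CPM. Vegfa, the main vessel growth factor, was at 158 and 348 CPM and Vegfc, a growth factor of lymph vessels, at 31.1 and 169.8 CPM. Tnfsf11, the osteoclast signal RANKL, was at 52.5 and 61.2 CPM, and Cxcl12 had a log2 ratio of 0.87. Within marrow-marked cells the median of 6 tested genes was 0.38, 4 had a positive and 2 (Pgf and Tnfsf11) a negative log2 ratio, and Vegfc alone passed 2-fold, at 72.1 and 259.7 CPM, and Cxcl12 was at 9699 and 11741 CPM. Kitl was at 680.2 and 1211 CPM and Lepr at 1099 and 411 CPM in these cells.

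Stat3 itself was not lower in the mutant cells of the set, at 108 and 151 CPM, which were 27.5 and 31.9 estimated UMIs in 23 and 17 cells. Counting is from the 3' end, and whether the deleted part of the gene lies under these reads was not given in the sources used here, so the gene is no check of the deletion. The 4 cartilage-marked mutant cells were too few to compare: Stat3 was at 0 there, with a floor of 101 CPM, against 87.7 CPM in the control cells of that kind. Of 14 genes of the gp130 and Stat3 pathway 5 were tested, with a median of 0.48. Lifr, the receptor of leukemia inhibitory factor, was lower, at 669 and 249.5 CPM in all members and 934 and 309.7 CPM in marrow-marked cells. Pim1, a kinase induced by cytokines, was higher, at 117 and 306 CPM. Il6st, which encodes gp130, was at 192 and 141 CPM and Socs3, the feedback inhibitor, at 92.7 and 137 CPM, both within 2-fold. Osmr fell below the level needed to be tested, at 67.3 and 4.68 CPM.

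The other lists moved little or rested on few cells. Of 12 cell cycle genes 4 were tested and 3 were at least 2-fold lower. Mki67, a protein of dividing cells, was found in 18 control cells and no mutant cell, at 336 CPM, at least 23.7-fold higher than the floor of 3 counts over the mutant cells, but 80.3% of it came from 3 cells, and its level was 129.7 CPM without globin-positive cells and 108 CPM without the called doublets. The median of the list was -3.12, and -1.85 without globin-positive cells. Of 14 growth plate signals 10 were tested, with a median of -0.25. Bmp4, a bone morphogenetic protein, was higher, at 85.2 and 283 CPM, and Hhip, which binds hedgehog ligands, lower, at 109.7 and 42.2 CPM. Of 9 integrins and osteopontin receptors 7 were tested, with a median of 0.07. Itga5 was higher, at 36.0 and 74.6 CPM, Itgb5 lower, at 155 and 42.3 CPM, and Cd44, a receptor of osteopontin, was at 77.9 and 79.6 CPM. Of 14 dissociation stress genes, all tested, none was 2-fold higher and 1 was lower, Hspa1a at 283 and 98.2 CPM, with a median of -0.05. Of 10 hypoxia and glycolysis genes 7 were tested and 1 was at least 2-fold higher, Adm, a vessel-dilating peptide, which was found in no control and 6 mutant cells, at least 9.61-fold above the floor of 3 counts over the control cells. The median of that list was 0.37.

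The largest single differences, among genes with a mean of at least 100 CPM, were of several kinds. Higher in the mutant were Hmox1, Rgcc, Fst, Tnfrsf12a, Tagln, Scp2, Gm8251, Cebpb, Il1rn and Vegfc. Hmox1, heme oxygenase 1, which breaks down heme and is induced by oxidative stress, was at 34.6 and 706 CPM, in 6 and 20 cells, and at 62.4 and 879 CPM in marrow-marked cells. Rgcc, a regulator of the cell cycle, was at 53.6 and 677 CPM, in 12 and 23 cells. Fst, follistatin, which binds activins, was at 58.4 and 424 CPM, and Cebpb, a transcription factor of stress and fat cell formation, at 69.2 and 386 CPM. All 10 had positive log2 ratios in the other globin-free cells too, between 0.28 for Gm8251 and 2.37 for Cebpb. For Hmox1 that ratio was 1.81, against 4.31 in the set. Lower were Mki67, Car2, Hbb-bs, Hist1h2ap, Prg4, Tnn, Pak1, Hist1h2ae, Tsix and Fibin. Car2, a carbonic anhydrase of red cells and osteoclasts, was found in 26 control cells and no mutant cell, at least 22.2-fold above the same floor, and Hbb-bs is a globin. Hist1h2ae, a histone gene, had a log2 ratio of -2.90, but 0.29 when globin-positive cells were left out, at 31.3 and 38.4 CPM. Prg4 had -3.69, but 3.26 in marrow-marked cells, where it was at 2.03 and 28.1 CPM, in 1 and 4 cells. The floors of 3 counts there were 27.3 and 21.7 CPM, so that reversal rests on very few counts. Pak1, a kinase of the cytoskeleton, was found in 22 and 3 cells and Tnn, the matrix protein tenascin W, in 19 and 4. Tsix lies antisense to another gene, and reads of such pairs may be split, which was not tested here.

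Against cells with at least 2 of the 3 osteoblast genes (187 control, 163 mutant), 117 of 1446 genes (8.09%) were at least 2-fold higher in the Mmp13+Spp1+ cells in both libraries and 36 (2.49%) lower. The 8 leading genes were Adipoq, Trf, Hp, Gdpd2, Esm1, Cxcl12, Lpl and Dpep1. Adipoq was at 474 and 481 CPM against 18.2 and 12.5 CPM. The lowest were Clic5, Htra4, Ly6a, Prg4, Bglap3, Col22a1, Car3 and Pcsk6. Of these, Clic5, Htra4 and Prg4, lubricin, are markers of the synovial lining, and Prg4 was at 28090.5 and 13699.8 CPM in the osteoblast-gene class, so that class is mixed as well. Mineral genes did not share a direction, with 2 of 10 tested higher and 2 lower. Cartilage matrix genes were lower for 4 of 13.

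Against cells with at least 2 of the 5 hypertrophic genes (297 and 131), 126 of 1549 genes (8.13%) were higher in both libraries and 92 (5.94%) lower. Higher were Hp, Gprin3, Dmp1, Lpl, Esm1, Trf, Gdpd2 and Angpt1. Dmp1 was at 247 and 155 CPM against 17.6 and 9.94 CPM, from 7 and 2 cells, of which 1 cell held 76.4% of it in the control and 97.0% in the mutant set. Lower were Il17b, Epyc, Ppa1, Rgs5, Matn3, Ndufa4l2, Col9a3 and Gfpt2, of which Epyc, Matn3 and Col9a3 are cartilage matrix genes. In all, 15 of 16 cartilage matrix genes were at least 2-fold lower than in the hypertrophic class in both libraries, with median log2 ratios of -2.89 and -3.20. Of 11 tested matrix proteases 4 were higher and none lower. Against all other globin-free cells, 14 of 14 tested cartilage matrix genes were lower, beside 5.68% of all genes.

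Since most mutant members were marrow-marked, Mmp13 and Spp1 were followed in all cells with at least 3 of the 5 marrow markers, whether or not the rule took them. There were 158 such control and 107 mutant cells, with median totals of 3028 and 5778 estimated UMIs, and the rule took 21 and 23 of them. Mmp13 was above 0 in 85 (53.8%, 45.7 to 61.8) and 42 (39.3%, 30.0 to 49.2) of them, whereas Spp1 was above 0 in 45 (28.5%, 21.6 to 36.2) and 73 (68.2%, 58.5 to 76.9). Among all cells of each library, Spp1 was above 0 in 11.3% and 23.7% and Mmp13 in 5.34% and 7.61%. A higher share with Spp1 in the mutant was thus also seen over all cells, but those shares include the marrow-marked cells. They also include 1524 erythroid-marked control cells, with Spp1 in 15, against 8 such mutant cells, with Spp1 in 1. How far the higher share went beyond marrow-marked cells was not tested. After thinning each cell to 1000 UMIs, which left out 7 and 4 shallower cells, Mmp13 was found in 35.1% (27.5 to 43.3) and 15.5% (9.15 to 24.0) and Spp1 in 17.2% (11.6 to 24.2) and 47.6% (37.6 to 57.6). Both genes were found together in 6.62% (3.22 to 11.8) and 8.74% (4.07 to 15.9) after thinning and in 17.1% (27 of 158) and 31.8% (34 of 107) before it. The gap in Mmp13 was smaller with 2 markers required in place of 3: among 302 control and 209 mutant cells thinned alike, Mmp13 was found in 22.2% (17.6 to 27.3) and 15.3% (10.7 to 20.9) and Spp1 in 13.9% (10.2 to 18.3) and 31.6% (25.3 to 38.3). These intervals treat cells of 1 library as draws and do not compare genotypes. As levels, Mmp13 was at 776 and 401 CPM and Spp1 at 646 and 2197 CPM, and without the 3 highest cells of each gene at 540.3 and 249.5 CPM and at 271 and 1726 CPM. Globin was above 0 in 99 of the 158 control and 7 of the 107 mutant cells, and without those cells Spp1 was found in 22 of 59 and 67 of 100 and Mmp13 in 35 of 59 and 39 of 100. In fibroblast-marked cells, where Spp1 should be low, 1 of 132 control cells and 2 of 49 mutant cells had it, with median totals of 3521 and 7270. Of the marrow genes, Cxcl12 was at 9949 and 10227 CPM and Adipoq at 1266 and 1201 CPM, and Col1a1 was at 6807 and 2169 CPM and Hmox1 at 72.3 and 662 CPM. These cells were grouped after the values were seen, and the values come from 1 pool per genotype.

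**Figure D5:**
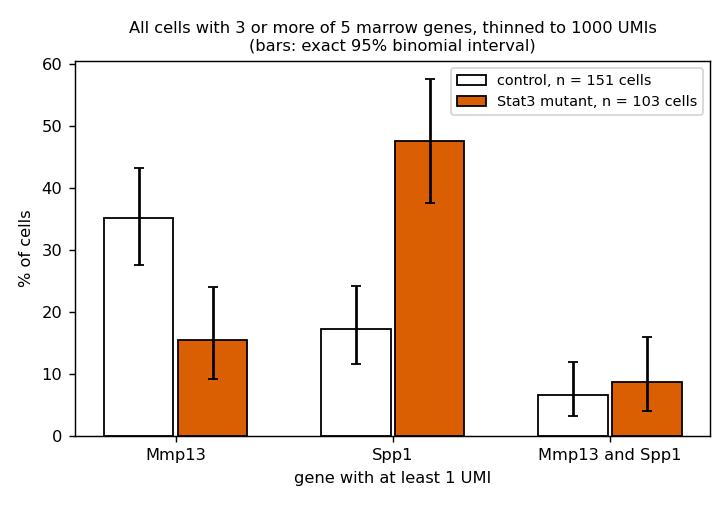
Share of all cells with at least 3 of 5 marrow markers in which Mmp13, Spp1 or both had at least 1 UMI after thinning to 1000 UMIs per cell, for 151 control and 103 Stat3 mutant cells, with exact 95% binomial intervals. The bars show Mmp13 at 35.1% and 15.5% and Spp1 at 17.2% and 47.6%; the intervals cover counting of cells in 1 library each and are no test between genotypes.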

How the data were processed

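Single-cell RNA libraries of 1 control and 1 Stat3 mutant pool were used. Per the labels and the study's methods, the authors ran STAR 2.7.3a on mm10 within Partek Flow, counted UMIs on Gencode genes and removed ambient RNA with SoupX. R 4.0.3 is also named in the submitters' processing notes. Each gene column was deposited on a log2(CPM + 1) scale, and the deposited total per cell is an estimated count that is not whole after ambient removal. The authors also deposited the percent of mitochondrial and ribosomal reads and, as a score, the number of genes above 0 in each cell. The 5% mitochondrial limit of the methods was not applied in the tables.

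From these values, estimated UMIs were computed as CPM times the cell's total over 1000000. They lay within 0.1 of a whole number for 74.9% of control and 97.3% of mutant values, so no count model was used. UMIs were summed over cells of a kind and set to CPM, with a pseudocount of 1 in log2 ratios. Genes were compared where the mean was at least 50 CPM and at least 10% of cells of a group held the gene. Against other classes of cells, a gene needed 100 CPM on one side in both libraries. With 1 library per genotype no test was run. Shares have exact 95% binomial intervals, combined by Newcombe's method for a difference, and a count of 0 has a floor of 3 counts. The members, lists and markers were chosen with earlier results of these data known. Beside the genes of 16 lists and 16 marker lists, the named genes were the 15 that led the cells over other globin-free cells (in at least 25% of cells, at least 50 CPM), the 10 with the highest and the 10 with the lowest mutant to control ratio at a mean of at least 100 CPM, and 8 each way against the osteoblast and hypertrophic classes. Alternatives covered the rule's limits, depth, mitochondrial share, doublets (Scrublet in scanpy 1.11.5), globin-positive cells, weighting, pseudocount and filters. Python 3.11.15, pandas 2.3.3 and scipy 1.17.1 were used, and the calculations were tested on simulated data.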

Additional observations from a re-analysis of the deposited data

How the results depend on the processing

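The difference in the share of Mmp13+Spp1+ cells, 1.54 points, stayed above 0 under all 9 alternatives and was 3.11 points with no exclusion. Its interval included 0 when globin-positive cells were left out, at 0.742 points (-0.643 to 2.13). The interval also included 0 when cells with any of the 3 osteoblast genes were left out, at 0.473 points (-0.190 to 1.32). These intervals cover counting of cells only and are no test between genotypes, whether or not they include 0. The 655 genes past 2-fold became 1204 when only the 15 control and 12 mutant cells with none of the 8 exclusion genes were kept, and 6737 of 13843 with no filter on low values. Leaving out the 3 highest cells of each gene, an alternative chosen after seeing the data like the marrow-marked cells alone, gave 196 higher and 322 lower genes of 2160 (37.8% higher, against 47.5%), with a median of -0.12. The log2 ratio of Mgp, 1.02, was -0.38 with equal weighting of cells, -1.36 in cells with none of the exclusion genes, -0.0065 in marrow-marked cells and -0.95 without the 3 highest cells. Without globin-positive cells Ibsp was at 0.47, Smpd3 at 0.76 and Hist1h2ae at 0.29. Dlx5 was at 1.16 in cells with none of the exclusion genes. In marrow-marked cells Prg4 was at 3.26 and Hist1h2ae at 2.24, from control levels of 2.03 and 11.2 CPM. The reversals of Smpd3 (14.1 and 24.5 CPM) and Dlx5 (12.8 and 30.0 CPM) lay at low levels as well. The causes were not tested. The comparisons with osteoblast-gene and hypertrophic-gene cells gave 141 to 161 and 192 to 236 genes. The median of the bone and fibrous collagens was below -1 under every alternative run. No paired analysis was possible because each genotype had 1 library, and no replicate could be left out for the same reason. Depth limits single genes: 1 UMI stood for 3.93 CPM (control) or 4.72 CPM (mutant).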
